A study of Mus musculus with 24 samples.

Results

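Egr1, Egr2, Egr3 and Egr4 encode the 4 zinc-finger transcription factors of the early growth response family, and Nab1 and Nab2 encode the corepressors named for binding them. These 6 genes, out of 55177 genes in the tables, were taken by symbol alone, and the estimated counts of all their transcripts were summed per gene in each of 24 libraries. All 6 passed the filter on low counts in every fit. Egr factors recognise a GC-rich DNA element. Neurons transcribe their genes within minutes of strong synaptic input or membrane depolarization, without new protein synthesis, through serum response factor (SRF) with its ternary complex partners and through CREB. Nab proteins bind a short inhibitory domain shared by Egr1, Egr2 and Egr3 and absent from Egr4, and they can turn these activators into repressors; in many cells Nab2 is itself a target of Egr factors, which closes a negative feedback loop.

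The libraries came from cortical neurons of mouse embryos at embryonic day 16.5, cultured for 7 or 18 days in vitro (DIV7 and DIV18). Every culture, resting or not, had been silenced overnight with 1 µM tetrodotoxin, a sodium channel blocker, and 100 µM D-AP5, an NMDA receptor blocker. Depolarization was by 50 mM KCl, for 30 min. At DIV7 the neurons were wild-type, carried no construct, and were given 0.1% DMSO in both states (2 resting and 2 depolarized libraries). At DIV18 the control neurons had a guide RNA without a target (non-targeting, NT), with 2 libraries in each state. The others lacked Smarcc2, which encodes a subunit of BAF chromatin remodelling complexes. Knockout cultures had an empty vector (3 resting, 3 depolarized), added-back wild-type Smarcc2 (WT; 2 resting, 3 depolarized), Smarcc2 with the S586E substitution (3 libraries, resting only) or Smarcc2 with the S586A substitution (2 libraries, depolarized only). The labels treat the cortex of each embryo as a biological replicate and do not say whether cultures in different states came from the same embryo. The promoter and cell type of the constructs were not given in the labels. DIV7 RNA was poly(A)-selected and DIV18 RNA was depleted of ribosomal RNA, so that age, library type, DMSO and construct cannot be told apart between the ages.

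Library totals were 24536056 to 30135576 estimated counts at DIV7 and 14510199 to 24024959 at DIV18. Levels are given below as counts per 1000000 of a library's total after TMM normalisation (CPM). Smarcc2 was at 237 to 283 CPM in NT libraries and 47.1 to 64.1 CPM with vector. With WT it was at 756 to 816 CPM at rest and 737 to 1089 CPM after KCl. It was higher with S586E (1164 to 1276 CPM, at rest) and with S586A (1303 to 1340 CPM, after KCl). Comparisons of these forms with WT therefore differ in Smarcc2 level as well as in the substitution. Neuron markers summed to between 3916 and 6094 CPM in every library. Astrocyte markers summed to 489 to 584 CPM at DIV7, 1274 to 1762 CPM in NT libraries and 738 to 1249 CPM with vector. The 7 oligodendrocyte-lineage markers summed to 57.0 to 67.6 CPM at DIV7, 129 to 211 CPM in NT libraries and 112 to 151 CPM with vector. Of these, Sox10 and Pdgfra were under 0.5 CPM in all DIV7 libraries, and Sox10 was so in all libraries with vector, S586E or S586A. Because these are bulk cultures, fewer responding cells and less RNA per cell cannot be told apart.

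Depolarization at DIV7 raised Egr1 36.7-fold, Egr2 39.9-fold and Egr4 7.11-fold, Egr3 1.70-fold and Nab1 1.40-fold, while Nab2 was not called (0.937-fold). At DIV18 Egr1, Egr2 and Egr4 rose on the average of 3 constructs, and Egr3, Nab1 and Nab2 were not called. At DIV7, 5 of the 6 genes were called higher after KCl (adjusted p under 0.05 in edgeR's quasi-likelihood test over all genes), where 7.34% of 19822 genes tested were called higher. The same 5 had both depolarized libraries above both resting ones, as 28.5% of all genes did. In NT cultures 0 of 6 were called by edgeR, where 0.00955% of 20940 genes were called. Of the 6, 3 (Egr1, Egr2 and Egr4) had an unadjusted p under 0.05 there, and DESeq2 called 2, Egr1 and Egr4. For unadjusted p-values and for DESeq2, here and below, the share of all genes is not given. Such counts therefore do not show whether the named genes stand out. In knockout cultures 2 of 6 were called with vector (0.0621% of all genes called higher) and 3 of 6 with WT (0.0382%). On the average of the NT, vector and WT responses, 3 of 6 were called higher, against 0.368% of all genes. The median log2 fold change of the 6 genes was 1.80 at DIV7 and 1.17 on the DIV18 average, where the medians of all genes tested were 0.00 and 0.00.

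**Figure D1:**
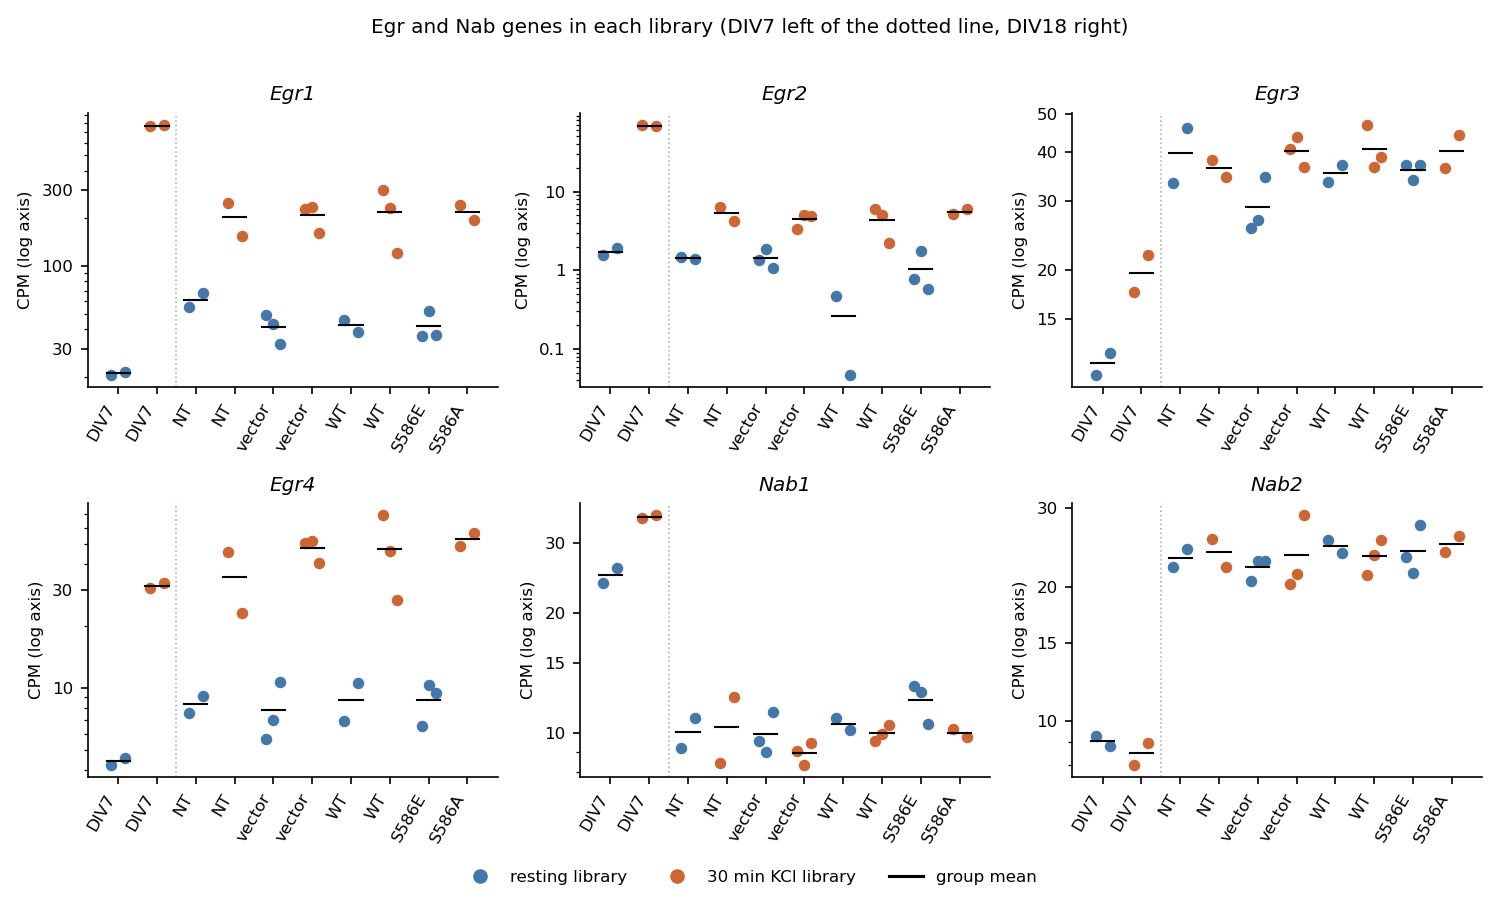
CPM of each gene in each of the 24 libraries (log axes with different ranges), with resting libraries in blue, depolarized libraries in orange and a black line at each group mean; DIV7 stands left of the dotted line. Egr1, Egr2 and Egr4 separate by state at both ages, while Nab2 libraries of both states overlap within each age.

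Egr1 (ENSMUSG00000038418.7; GRCm38 chr18:34859823-34864984, plus strand, protein-coding) is the family member most used as a marker of recently active neurons. At DIV7 it was at 20.6 and 21.3 CPM at rest and at 767 and 773 CPM after KCl, a 36.7-fold ratio of the means. The log2 fold change was 5.20 (SE 0.0477, 95% interval 5.08 to 5.31, adjusted p 2.39e-08, edgeR). At DIV18 Egr1 ran from 32.0 to 67.6 CPM at rest and from 121 to 303 CPM after KCl. Levels were not tested between the ages, where library type differs, and the order at rest depended on the measure. In TPM (counts scaled by transcript length) resting DIV7 libraries were at 12.4 and 12.8. Resting NT libraries were at 15.5 and 18.5 TPM, and those with vector at 7.99 to 13.0 TPM. Resting NT libraries were at 55.0 and 67.6 CPM and depolarized ones at 251 and 155 CPM. With vector, Egr1 was at 48.8, 42.9 and 32.0 CPM at rest and at 230, 235 and 162 CPM after KCl. With WT it was at 45.9 and 38.5 CPM at rest and at 303, 232 and 121 CPM after KCl. In each of these 3 comparisons the states did not overlap, and every depolarized library was also the higher for 16.7% of all genes in NT, 8.21% with vector and 11.3% with WT. In each, the depolarized Egr1 libraries spread more widely in CPM than the resting ones. Relative to the mean this did not hold with vector (SD 8.53 at a mean of 41.3 CPM at rest, SD 40.5 at a mean of 209 CPM after KCl). Depolarized NT replicate 2 and depolarized WT replicate 3 were the lowest depolarized libraries for Egr1. S586E libraries, measured at rest only, were at 36.1, 52.2 and 36.8 CPM, and S586A libraries, measured after KCl only, at 244 and 197 CPM.

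The Egr1 response at DIV18 was 1.73 on the log2 scale in NT cultures (SE 0.322, 95% interval 1.05 to 2.41, adjusted p 0.0912, edgeR), which did not pass. It rose by 2.34 with vector (SE 0.272, adjusted p 7.56e-04) and by 2.37 with WT (SE 0.316, adjusted p 0.00357). On the average of the 3 responses it was 2.15 (SE 0.176, adjusted p 2.07e-06). The NT value passed with the replicate number as a block (log2 fold change 1.71, adjusted p 0.00500, edgeR) and with DESeq2 (adjusted p 0.00448). Without depolarized NT replicate 1 it was 1.34 (adjusted p 0.583) and without replicate 2 it was 2.03 (adjusted p 0.0790). The WT call for Egr1 was lost without either resting WT library (adjusted p 0.143 without replicate 1 and 0.125 without replicate 2) and in a fit of only the WT groups (0.108).

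Egr2 (ENSMUSG00000037868.15; GRCm38 chr10:67535475-67542188, plus strand, protein-coding) is best known for its roles in hindbrain segmentation and in Schwann cell myelination, and is also an activity-regulated gene of neurons. It has several annotated starts. At DIV7 most of its RNA was assigned to Egr2-201, which was at 0.956 and 1.20 TPM (counts scaled by transcript length to a fixed library sum) in resting DIV7 libraries and at 40.9 to 42.2 TPM after KCl. The 250 bases before the start of that form are shown because they hold, on letters alone, both kinds of element named above. The first and last runs of capitals mark a CRE half-site, TGACG, read on either strand, and the middle run marks a CArG box, the SRF element.
Egr2, chr10:67537619-67537868, plus strand: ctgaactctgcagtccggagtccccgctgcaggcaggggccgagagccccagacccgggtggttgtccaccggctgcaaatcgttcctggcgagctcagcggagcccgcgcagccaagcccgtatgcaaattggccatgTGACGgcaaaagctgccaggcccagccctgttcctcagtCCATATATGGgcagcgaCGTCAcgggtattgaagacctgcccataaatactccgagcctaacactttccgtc
The CArG box lies 72 to 63 bases before the start and the half-sites begin 111 and 55 bases before it. Of 32851 promoter windows of the same length in the RefSeq table (GRCm38.p6, 250 bases before to 50 after each start, both strands searched), 1.63% hold a CArG box and 20.8% a half-site, which also occurs inside the full CRE TGACGTCA (1.79%). The half-site was added to the search after the windows had been read.

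At DIV7 Egr2 went from 1.54 and 1.89 CPM to 69.0 and 68.1 CPM, a 39.9-fold ratio of means and the largest ratio among the 6 genes. At DIV18 it was the least abundant of the 6 in every group. Resting NT libraries were at 1.49 and 1.38 CPM and depolarized ones at 6.30 and 4.27 CPM. With vector it went from 1.35, 1.85 and 1.08 CPM to 3.33, 5.10 and 4.82 CPM. The resting WT libraries, at 0.474 and 0.0475 CPM, were the lowest of all 24, and the depolarized WT libraries reached 5.92, 5.02 and 2.19 CPM. S586E libraries at rest were at 0.769, 1.73 and 0.575 CPM, and S586A libraries after KCl at 5.11 and 6.02 CPM. States did not overlap in NT, vector or WT cultures, where 16.7%, 8.21% and 11.3% of all genes had every depolarized library higher, but the resting WT values rest on 10 counts and 1 count, whereas depolarized WT libraries had 137, 110 and 49.

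The log2 fold change of Egr2 in NT cultures was 1.88 (SE 0.516, 95% interval 0.80 to 2.96, adjusted p 0.724, edgeR). With vector it was 1.62 (SE 0.434, 95% interval 0.71 to 2.52, adjusted p 0.262), and DESeq2 called it (adjusted p 0.0462). With WT it was 4.04 (SE 0.621, 95% interval 2.73 to 5.34, adjusted p 0.0110), which passed. Without resting WT replicate 1 that Egr2 value became 6.35 (adjusted p 0.0590) and without replicate 2 it became 3.18 (adjusted p 0.207), so the 2 libraries decide both its size and its call. In a fit of only the WT groups the Egr2 value was 4.04 (adjusted p 0.277). The DIV18 average was 2.51 (SE 0.307, adjusted p 2.82e-04).

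Egr4 (ENSMUSG00000071341.4; GRCm38 chr6:85511121-85513589, minus strand, protein-coding) is the member that lacks the Nab-binding domain, and it has a single annotated transcript. The 250 bases before its start are shown beside those of Egr2 because both genes moved with depolarization. Capitals mark the CRE half-site on the opposite strand.
Egr4, chr6:85513590-85513839, minus strand: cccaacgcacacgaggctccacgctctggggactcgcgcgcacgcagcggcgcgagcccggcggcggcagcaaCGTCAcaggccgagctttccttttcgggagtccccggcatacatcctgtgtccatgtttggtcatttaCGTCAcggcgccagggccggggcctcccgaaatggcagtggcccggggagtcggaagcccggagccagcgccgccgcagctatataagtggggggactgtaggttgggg
The half-sites begin 177 and 109 bases before the start, and no CArG box by the letters searched lies in the window. At DIV7 Egr4 went from 4.25 and 4.59 CPM to 30.6 and 32.3 CPM, a 7.11-fold ratio of means (log2 fold change 2.83, SE 0.0974, adjusted p 1.13e-05, edgeR). At DIV18 the direction was the same in NT, vector and WT cultures. In NT cultures it went from 7.52 and 9.18 CPM to 46.0 and 23.2 CPM. With vector it went from 5.65, 7.02 and 10.7 CPM to 50.8, 52.0 and 40.5 CPM. With WT it went from 6.93 and 10.6 CPM to 69.0, 46.1 and 26.9 CPM. The depolarized libraries that were lowest for Egr1, NT replicate 2 and WT replicate 3, were also the lowest for Egr4. S586E libraries at rest were at 6.54, 10.3 and 9.40 CPM, and S586A libraries after KCl at 49.3 and 56.8 CPM. The highest resting DIV18 library, at 10.7 CPM, lay below the lowest depolarized one, at 23.2 CPM.

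Egr4 rose by a log2 fold change of 2.63 with vector (SE 0.320, adjusted p 9.96e-04, edgeR) and also with WT (2.43, SE 0.363, adjusted p 0.00902). In NT cultures it was 2.05 (SE 0.380, 95% interval 1.26 to 2.85, adjusted p 0.0912), which did not pass. Without depolarized NT replicate 2 the Egr4 value was 2.46 and passed (adjusted p 0.0335), and without replicate 1 it was 1.47 (adjusted p 0.584). With DESeq2 the NT value of Egr4 passed (adjusted p 0.00751). The WT call for Egr4, like that for Egr1, was lost without resting WT replicate 1 (adjusted p 0.571) or replicate 2 (0.108) and in a fit of only the WT groups (0.166). The DIV18 average was 2.37 (SE 0.206, adjusted p 3.86e-06).

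Over all DIV18 libraries, 10 resting and 10 depolarized, 3 of the 6 genes had every depolarized library above every resting one, where 0.115% of the 20940 genes did. Egr1 ran from 32.0 to 67.6 CPM at rest (median 44.4) and from 121 to 303 CPM after KCl (median 231). Egr2 ran from 0.0475 to 1.85 CPM (median 1.21) and from 2.19 to 6.30 CPM (median 5.06), and Egr4 from 5.65 to 10.7 CPM (median 8.35) and from 23.2 to 69.0 CPM (median 47.7). Egr3, Nab1 and Nab2 overlapped between the states. The resting set includes S586E and the depolarized set S586A, so the sets differ in constructs as well as in state.

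Egr3 (ENSMUSG00000033730.4; GRCm38 chr14:70077203-70082614, plus strand, protein-coding) is another activity-regulated member in neurons and, outside the brain, is known for its role in muscle spindle development. At DIV7 it was at 10.8 and 12.3 CPM at rest and at 17.5 and 21.8 CPM after KCl, a 1.70-fold ratio of means. The log2 fold change was 0.77 (SE 0.130, 95% interval 0.46 to 1.08, adjusted p 0.00953, edgeR), and without resting DIV7 replicate 1 the Egr3 value was 0.68 and did not pass (adjusted p 0.0586), nor did it with length offsets (0.62). At DIV18 the states overlapped over all libraries. NT libraries were at 33.4 and 46.2 CPM at rest and at 38.2 and 34.6 CPM after KCl. With vector Egr3 was at 25.6, 26.8 and 34.6 CPM at rest and at 40.7, 43.7 and 36.6 CPM after KCl. With WT it was at 33.5 and 37.1 CPM at rest and at 46.8, 36.6 and 38.9 CPM after KCl. S586E libraries at rest were at 37.1, 33.9 and 37.1 CPM, and S586A libraries after KCl at 36.4 and 44.2 CPM. Among the DIV18 constructs the 2 states did not overlap in CPM with vector alone, where 8.21% of all genes had every depolarized library higher. There the lowest depolarized library (36.6 CPM) exceeded the highest resting one (34.6 CPM) by a small margin. The separation depended on the measure. In TPM, Egr3 with vector was at 7.06 to 8.40 at rest and at 13.9 to 14.4 after KCl. Libraries with WT were at 8.09 and 10.01 TPM at rest and at 10.98 to 16.69 TPM after KCl, also without overlap. In NT the TPM values overlapped (9.93 and 13.82 at rest, 14.90 and 11.25 after KCl). These TPM differences were not tested, and the share of all genes without overlap in TPM is not given. The log2 fold changes were -0.13 in NT (SE 0.163, 95% interval -0.47 to 0.21, adjusted p 1.00, edgeR), 0.48 with vector (SE 0.135, 95% interval 0.20 to 0.76, adjusted p 0.262) and 0.21 with WT (SE 0.149, adjusted p 0.977). None of these passed. The DIV18 average was 0.19 (95% interval 0.01 to 0.37, unadjusted p 0.0437, adjusted p 0.608).

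The transcript forms of Egr3 were read one by one. Egr3-201, a protein-coding form, was at 2.21 and 2.45 TPM in resting DIV7 libraries and at 3.85 and 5.71 TPM after KCl. Over the DIV18 libraries Egr3-201 ran from 0.799 to 2.34 TPM at rest (median 1.53) and from 2.45 to 3.88 TPM after KCl (median 3.05), and the states did not overlap. Of 74033 transcripts above 0 in at least 10 DIV18 libraries, 0.0527% had every depolarized library above every resting one, and at DIV7 20.2% of 90368 did. Egr3-204, also protein-coding, was at 2.59 and 3.70 TPM at rest and 5.27 and 6.27 TPM after KCl at DIV7, without overlap and in the same direction as Egr3-201. It was at 3.35 to 6.23 TPM at rest and 2.26 to 5.14 TPM after KCl at DIV18, and overlapped (medians 4.35 and 3.90). Egr3-203, a processed transcript, was at 1.23 to 1.71 TPM at rest and 0 to 0.487 TPM after KCl at DIV7, opposite in direction to Egr3-201. At DIV18 it overlapped, with a higher median after KCl (1.11 TPM at rest, 2.46 TPM after KCl). The retained-intron form Egr3-202 overlapped at both ages, with medians at DIV18 of 2.13 TPM at rest and 3.21 TPM after KCl. These TPM values are the authors' split of reads among forms that share exons, and they carry no test. The split can differ between poly(A) and rRNA-depleted libraries.

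**Figure D2:**
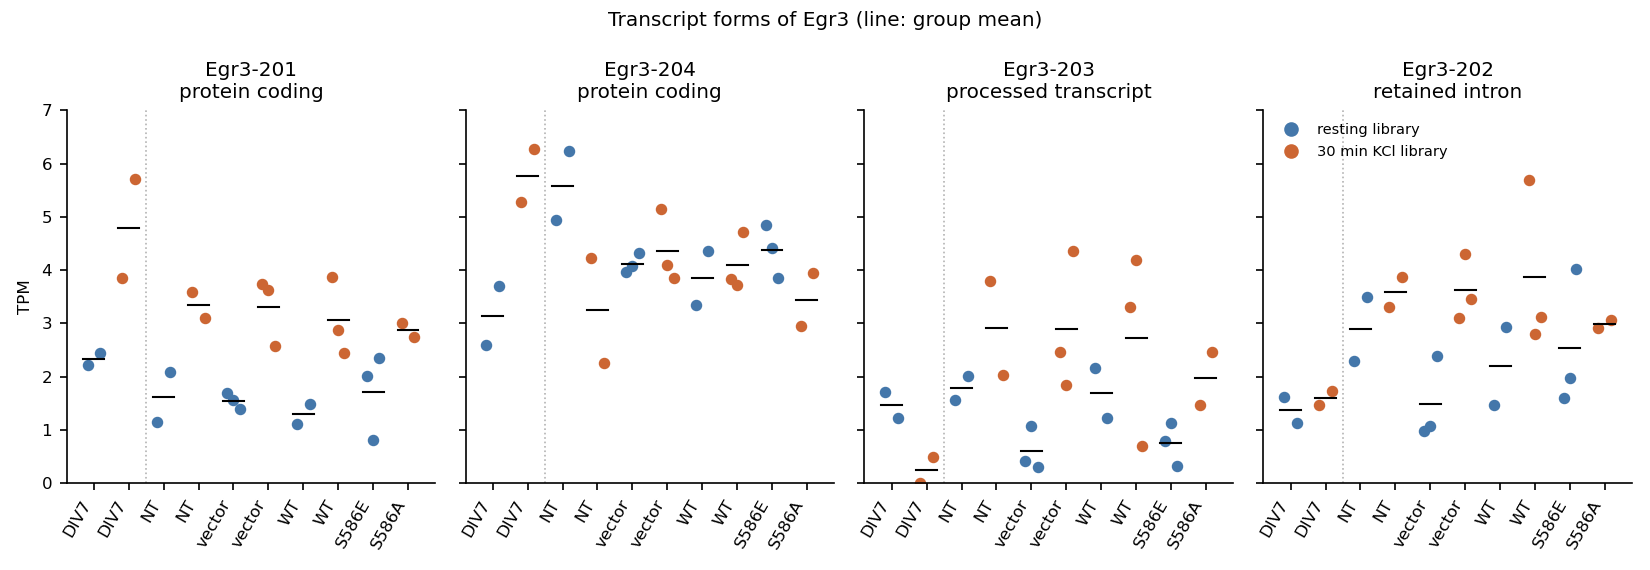
Deposited TPM of the 4 annotated Egr3 transcript forms in each library (linear axis from 0), resting in blue and depolarized in orange, with group means as black lines and DIV7 left of the dotted line. Depolarized DIV18 libraries of Egr3-201 lie at 2.45 TPM or higher and resting ones at 2.34 TPM or lower, while the other 3 forms overlap between states at DIV18.

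Nab1 (ENSMUSG00000002881.14; GRCm38 chr1:52457294-52500679, minus strand, protein-coding) encodes the corepressor that is made in most tissues. Its RefSeq promoter window was the only one of the 4 matched (Egr2, Egr4, Nab1 and Nab2) with an EGR element by the letters searched. The 3 matches are shown with 10 bases on each side, in the direction of transcription, and capitals mark the element. The first 2 are GCGTGGGCG (the first on the opposite strand) and the last is GCGGGGGCG.
Nab1, chr1:52500571-52500599, minus strand: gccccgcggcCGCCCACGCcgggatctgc
Nab1, chr1:52500539-52500567, minus strand: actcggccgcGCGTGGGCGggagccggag
Nab1, chr1:52500468-52500496, minus strand: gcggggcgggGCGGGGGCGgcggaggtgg
The elements begin 141, 109 and 38 bases before the RefSeq start, and a CRE half-site begins 123 bases before it. That start lies inside the annotated gene, which begins further upstream, so all 3 matches lie within the gene span given above. GCGTGGGCG occurs in 0.612% of the 32851 windows and GCGGGGGCG in 2.91%. The matches say nothing of whether a factor binds there.

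At DIV7 Nab1 was at 23.8 and 26.0 CPM at rest and at 34.5 and 35.1 CPM after KCl, a 1.40-fold ratio of means. The log2 fold change was 0.48 (SE 0.0743, 95% interval 0.31 to 0.66, adjusted p 0.00698, edgeR). With offsets for the effective lengths of the transcripts the Nab1 value was 0.39 and did not pass (adjusted p 0.0520). At DIV18 Nab1 ran from 8.97 to 13.1 CPM at rest and from 8.36 to 12.3 CPM after KCl, so the states overlapped. Library type differs between the ages, and the difference in level was not tested. Nab1 was at 9.22 and 10.9 CPM at rest in NT cultures and at 8.43 and 12.3 CPM after KCl. With vector it was at 8.97 to 11.3 CPM at rest and 8.36 to 9.45 CPM after KCl, and with WT at 10.2 to 10.9 CPM and 9.59 to 10.5 CPM. S586E libraries were at 10.6 to 13.1 CPM and S586A libraries at 9.78 and 10.3 CPM. The DIV18 average response was -0.06 (95% interval -0.25 to 0.13, adjusted p 0.922, edgeR).

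Nab2 (ENSMUSG00000025402.12; GRCm38 chr10:127660918-127668568, minus strand, protein-coding) is the corepressor that growth factors and Egr factors induce in other cells. At DIV7 it was at 9.30 and 8.82 CPM at rest and at 8.01 and 8.96 CPM after KCl (log2 fold change -0.10, 95% interval -0.37 to 0.18, adjusted p 0.629, edgeR). At DIV18 it ran from 20.6 to 27.5 CPM over the 10 resting libraries and from 20.3 to 28.9 CPM over the 10 depolarized ones. The DIV18 average response was 0.02 (95% interval -0.15 to 0.19, adjusted p 0.977). Nab2 overlaps Nemp1 by 1668 bases, the antisense gene Gm16229 by 1646 bases and Stat6 by 40 bases, all on the opposite strand. Strand use in counting was not stated, so the Nab2 level is uncertain by reads from those genes, of which Nemp1 was at 10.8 to 20.7 CPM and Stat6 at 10.2 to 25.4 CPM at DIV18. None of the motifs searched lies in the Nab2 window, which itself lies inside the annotated gene and not before its first base.

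**Figure D3:**
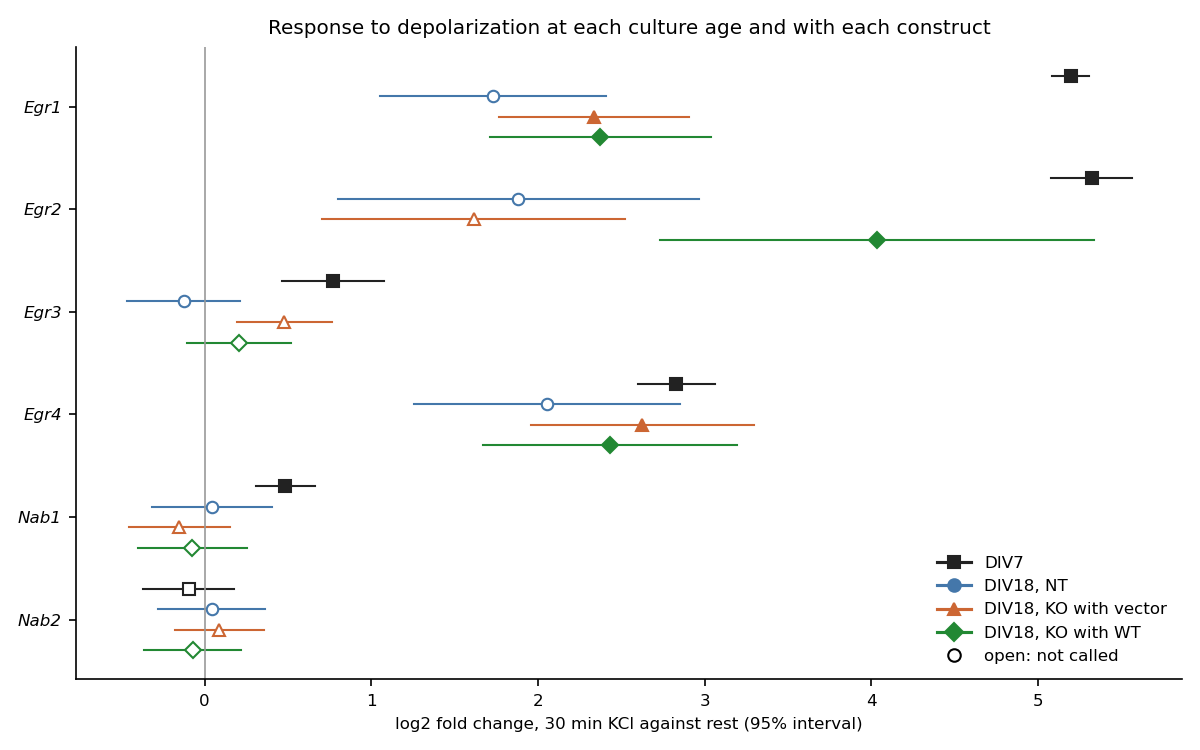
Log2 fold change of 30 min KCl against rest (edgeR, horizontal axis) for each gene at DIV7 and in NT, vector and WT cultures at DIV18, with 95% intervals as lines and filled symbols where the adjusted p is under 0.05. Egr1 and Egr2 at DIV7 (5.20 and 5.32) lie right of all DIV18 estimates, Egr4 lies between 2.05 and 2.83 throughout, and Nab2 lies near 0.

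The responses were then compared with each other. The DIV7 response exceeded that of NT cultures at DIV18 for 3 of the 6 genes in a fit of all 24 libraries, where 0.49% of 22459 genes were called higher. The difference was 3.48 for Egr1 (SE 0.437, adjusted p 5.08e-05, edgeR), 3.45 for Egr2 (SE 0.604, adjusted p 0.00239) and 0.91 for Egr3 (SE 0.236, adjusted p 0.0497). The Egr3 difference did not pass in 8 of 14 alternatives, among them length offsets, which brought it to 0.46 (adjusted p 0.588). For Egr4 the difference was 0.79 with an interval of -0.27 to 1.86 (adjusted p 0.640). For Nab1 it was 0.46 (0.01 to 0.91, adjusted p 0.424) and for Nab2 -0.12 (-0.57 to 0.33). Between NT and vector cultures 0 of 6 response differences were called by edgeR (0.0% of all genes), 1 (Egr3, 0.61, SE 0.211) had an unadjusted p under 0.05, and DESeq2 called 0. The Egr1 response was larger with vector by 0.61, with an interval of -0.25 to 1.47, and the Egr4 response by 0.57 (-0.45 to 1.60). Between WT and vector 0 of 6 were called by edgeR (0.0% of all genes) and 0 by DESeq2, and 1, Egr2, had an unadjusted p under 0.05 (difference 2.42, interval 0.81 to 4.03, adjusted p 1.00), a value that includes the low resting WT libraries. The Egr1 difference there was 0.04 (-0.78 to 0.86) and the Egr4 difference -0.19 (-1.17 to 0.78).

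Knockout cultures with vector were set against NT cultures in the same state. At rest 0 of 6 were called by edgeR, where 5.9% of all genes were, 1 (Egr3) had an unadjusted p under 0.05, and DESeq2 called that 1. The Egr3 libraries with vector, at 25.6 to 34.6 CPM, overlapped the NT libraries, at 33.4 and 46.2 CPM (log2 fold change -0.46, SE 0.148, adjusted p 0.0780, edgeR; 0.0481 with DESeq2). Without resting NT replicate 1 the Egr3 value was -0.68 (adjusted p 0.0303) and without replicate 2 it was -0.21 (adjusted p 0.734), and without resting vector replicate 3 it was -0.60 (adjusted p 0.0262). Egr1 was at 32.0 to 48.8 CPM with vector at rest and at 55.0 and 67.6 CPM in NT. Its log2 fold change was -0.57 (interval -1.18 to 0.05, adjusted p 0.286, edgeR), which did not pass. After KCl 0 of 6 were called by edgeR (2.67% of all genes), 0 had an unadjusted p under 0.05 and DESeq2 called 0. Egr1 differed there by 0.04 (-0.56 to 0.64) and Egr4 by 0.46 (-0.21 to 1.14).

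Adding back WT Smarcc2 gave 0 of 6 calls against vector at rest by edgeR (0.0143% of all genes), with 1, Egr2, at an unadjusted p under 0.05 and called by DESeq2. Egr2 was lower with WT by a log2 fold change of -2.43 (SE 0.653, interval -3.80 to -1.06, adjusted p 0.181, edgeR), and that value ran from -4.74 without resting WT replicate 1 to -1.58 without replicate 2. After KCl 0 of 6 were called by edgeR (0.00955% of all genes), 0 had an unadjusted p under 0.05 and DESeq2 called 0. Egr2 then differed by -0.01 (-0.84 to 0.82), Egr1 by 0.07 (-0.46 to 0.60) and Egr4 by -0.01 (-0.61 to 0.58).

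The substituted forms of Smarcc2 were each measured in 1 state. S586E against WT at rest gave 0 of 6 calls by edgeR (0.0% of all genes) and 0 by DESeq2, with 1, Egr2, at an unadjusted p under 0.05 (log2 fold change 1.98, interval 0.58 to 3.37, adjusted p 0.228), again against the low WT libraries. S586E against vector gave 0 by edgeR (0.0191% of all genes) and 0 by DESeq2, with Egr3 alone at an unadjusted p under 0.05 (0.31, interval 0.03 to 0.60, adjusted p 0.624). Egr1 differed by -0.01 between S586E and WT (-0.64 to 0.61). S586A after KCl gave 0 of 6 calls by edgeR and 0 by DESeq2 against WT (0.0% of all genes) and against vector (0.00955%), with 0 at an unadjusted p under 0.05 in both. Egr1 differed by 0.01 between S586A and WT (-0.59 to 0.60), Egr2 by 0.34 (-0.57 to 1.26) and Egr4 by 0.16 (-0.50 to 0.82). Responses to depolarization with S586E or S586A cannot be given, since each was sequenced in a single state.

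Levels were compared between the genes on the length-scaled TPM values. In resting DIV7 libraries Nab1 was the most abundant of the 6 (mean 19.9 TPM), above Egr1 (12.6 TPM). Egr3 (8.32 TPM) and Nab2 (7.74 TPM) followed and overlapped each other, and Egr4 (4.00 TPM) and Egr2 (1.28 TPM) were lowest. After KCl Egr1 (452 TPM) led Egr2 (43.5 TPM) and Egr4 (27.8 TPM), and Nab1 (25.1 TPM), Egr3 (12.4 TPM) and Nab2 (6.88 TPM) came below them, with no overlap between neighbours. In resting NT libraries at DIV18 Egr1 led (17.0 TPM), followed by Egr3 (11.9 TPM) and Nab2 (9.40 TPM). Egr4 (3.66 TPM) and Nab1 (3.09 TPM) overlapped, and Egr2 (0.640 TPM) was lowest. In all 4 depolarized DIV18 groups the order of the means was Egr1, Egr4, Egr3, Nab2, Nab1 and Egr2. In NT these were at 54.7, 15.1, 13.1, 10.4, 3.96 and 2.21 TPM, and Egr4 and Egr3 overlapped there and with WT. Nab1 thus ranked above Nab2 at DIV7 and below it in every DIV18 group. Library type differs between the ages, and the Nab2 level is uncertain by reads from genes on the opposite strand. Of these, Nemp1 was at 2.67 to 3.89 CPM at DIV7 and 10.8 to 20.7 CPM at DIV18. Stat6, which overlaps Nab2 by only 40 bases where Nemp1 overlaps it by 1668, was at 0.526 to 0.879 CPM and 10.2 to 25.4 CPM. Their part in the change of rank was not tested.

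The summed TPM of the 4 Egr genes was divided by that of the 2 Nab genes as a description of their balance in RNA. At DIV7 this ratio went from 0.944 and 0.952 at rest to 16.5 and 17.0 after KCl. At DIV18 it was 2.64 ± 0.184 (SD, n = 2) at rest and 5.88 ± 2.00 (SD, n = 2) after KCl in NT, 1.98 ± 0.179 (SD, n = 3) and 7.93 ± 1.96 (SD, n = 3) with vector, and 2.17 ± 0.119 (SD, n = 2) and 7.58 ± 3.87 (SD, n = 3) with WT. S586E libraries at rest averaged 1.79 ± 0.326 (SD, n = 3) and S586A libraries after KCl 7.59 ± 1.43 (SD, n = 2). Every resting library lay below every depolarized one, and the summed Nab TPM ran from 9.18 to 14.9 over the DIV18 libraries of both states. Egr1 made up 48.1% of the summed Egr TPM in both resting DIV7 libraries and 83.9 and 84.8% after KCl. At DIV18 its share was 38.2 to 56.7% at rest and 55.4 to 65.2% after KCl.

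**Figure D4:**
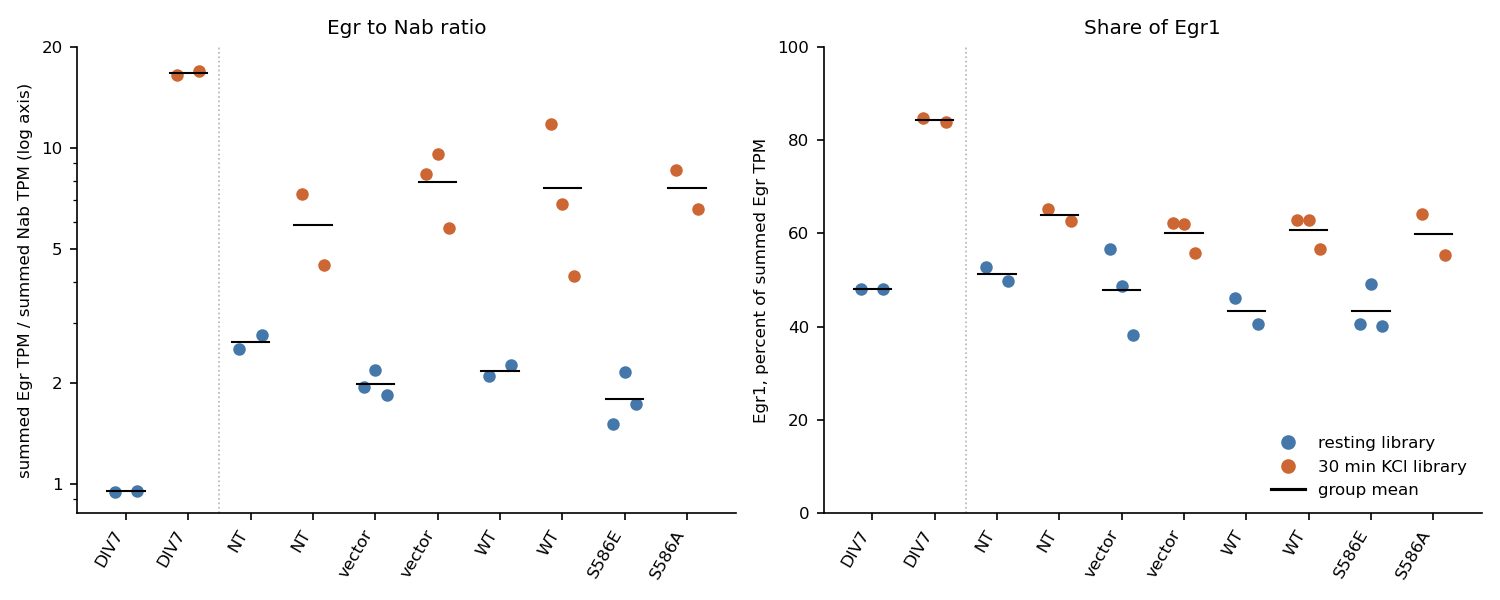
Left, summed TPM of Egr1 to Egr4 over summed TPM of Nab1 and Nab2 in each library (log axis); right, Egr1 as a percent of the summed Egr TPM (linear axis from 0). Resting libraries are blue, depolarized ones orange and group means black lines. The ratio lies near 1 in resting DIV7 libraries and at 16.5 and 17.0 after KCl, and between 4.15 and 11.8 in depolarized DIV18 libraries.

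Genes whose pattern was most like each member were named by the highest Pearson correlation of log2(CPM + 1) over the 20 DIV18 libraries among 13319 protein-coding genes with a mean of at least 1 CPM. This is a description with no test, and the points share libraries, depth and the contrast of states. For Egr1 these were Fos (0.985), Fosb (0.980) and Npas4 (0.973), all immediate early genes. For Egr4 they were Npas4 (0.982), Arc (0.982) and Fosb (0.981), and for Egr2 they were Egr1 (0.926), Fos (0.922) and Npas4 (0.906). Egr3, Nab1 and Nab2 had other neighbours and lower values. Egr3 was nearest to Colgalt2 (0.864), Slain2 (0.799) and Mrps18b (0.794), Nab1 to Pou3f3 (0.828), Pja2 (0.798) and Ube2q1 (0.793), and Nab2 to Cyth3 (0.780), Kcnk12 (0.765) and Pcdha8 (0.730). When each library was taken as its deviation from its group mean, so that the states no longer counted, Egr4 was nearest to Arc (0.913), then Nr4a1 (0.901) and Ier2 (0.898). Egr1 was then nearest to Btg2 (0.945), Zfp235 (0.936) and B4galnt1 (0.934), Egr2 to Snrpg (0.853), Gstm4 (0.809) and Grhpr (0.799), and Egr3 to Rps25 (0.872), Sec24c (0.871) and Rps19 (0.863). Nab1 was then nearest to Arpc5l (0.900), E330009J07Rik (0.832) and Ubap1 (0.810), and Nab2 to Kcnk12 (0.879), Tvp23a (0.851) and Pqlc1 (0.847).

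**Figure D5:**
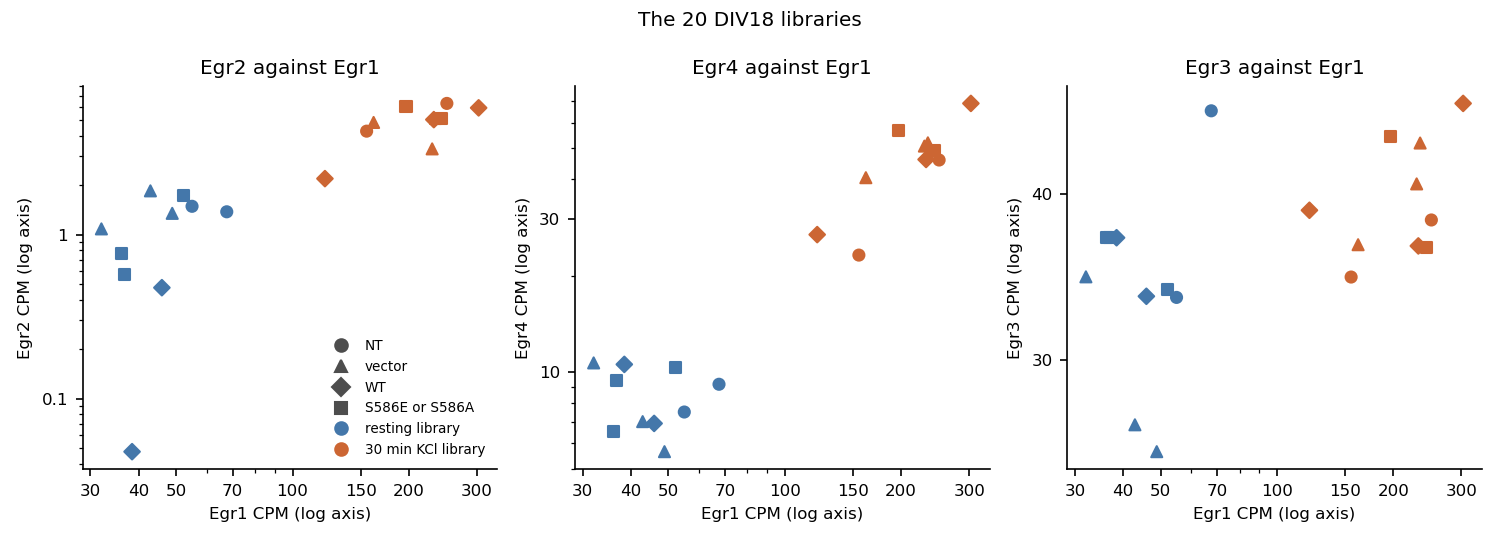
CPM of Egr2, Egr4 and Egr3 (vertical, log axes) against Egr1 (horizontal, log axis) in each of the 20 DIV18 libraries, with symbols for the constructs and colours for the state. Resting and depolarized libraries form separate clouds for Egr2 and Egr4, the resting WT library with Egr2 at 0.0475 CPM stands below the rest, and the Egr3 ranges of the states overlap.

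Of 17 tested genes for factors and kinases that act on Egr promoters (SRF, ternary complex factors, MAP kinases and CREB), 3 rose and 1 fell at DIV7, where 17.0% of all genes were called in either direction. Their median log2 fold change was 0.01 (0.00 for all genes). Srf itself went from 39.4 and 40.3 CPM to 59.0 and 59.6 CPM (log2 fold change 0.57, adjusted p 0.00142, edgeR). The kinase gene Rps6ka3 (0.34) and the coactivator gene Ep300 (0.24) rose, and Elk1 (-0.45), a ternary complex factor, fell. Rps6ka3 did not pass without either resting DIV7 library, and Ep300 not in 4 of 9 alternatives. At DIV18 edgeR and DESeq2 each called 0 of these 17 genes after KCl in NT, vector and WT cultures, and of them 0, 1 and 1 had an unadjusted p under 0.05. Few genes of any kind were called there by edgeR: of 20940 tested, 2, 13 and 8 were higher and 0, 2 and 1 lower. With vector at rest 2 of the 17 were lower than in NT, Mapk3 (144 and 169 CPM in NT, 94.3 to 111 CPM with vector, log2 fold change -0.61, adjusted p 0.00356) and Map2k1 (-0.44, adjusted p 0.0189), with a list median of -0.02 against 0.02 for all genes. Of all genes 5.9% were called in that comparison, in either direction.

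Of 20 reported Egr targets, measured as 21 gene identifiers, 5 identifiers rose and 3 fell at DIV7, where 17.0% of all genes were called in either direction and 7.34% rose (median log2 fold change 0.10, 0.00 for all genes). Arc, which encodes a synaptic protein that drives AMPA receptor removal, went from 5.24 and 7.12 CPM to 56.4 and 60.2 CPM (log2 fold change 3.23, SE 0.126, adjusted p 2.20e-05, edgeR). Ptgs2, the inducible cyclooxygenase, rose by 2.60 from a low level (0.242 and 0.281 CPM at rest, 1.60 and 1.62 CPM after KCl) and the clock gene Per1 by 0.52. Ptp4a1 rose under both of its identifiers (2.22 and 0.31), which are uncertain where reads were split between them. Bhlhe40 (-0.59), Cdk5r1 (-0.17) and F3 (-0.87) fell, of which Bhlhe40 did not pass in 2 of 9 alternatives and Cdk5r1 in 4. At DIV18 Arc alone was called, with vector (36.2 to 57.1 CPM at rest, 129 to 193 CPM after KCl, log2 fold change 1.90, SE 0.341, adjusted p 0.0387) and on the DIV18 average (1.94, SE 0.223, adjusted p 1.20e-04). The vector call was lost when any 1 of the 6 vector libraries was left out (adjusted p up to 0.287). In NT and WT cultures edgeR called 0 of the 21 identifiers, 2 had an unadjusted p under 0.05 in each, and DESeq2 called 0 and 1 (Arc). Of all 20940 genes tested, edgeR called only 2 and 8 higher and 0 and 1 lower there. With vector at rest 4 of the 21 were lower than in NT: Fgf2 (12.3 CPM in both NT libraries, 5.54 to 6.23 CPM with vector, log2 fold change -1.05, adjusted p 0.00252), Ptgs1 (-1.45), Per1 (-0.55) and F3 (-0.95), with a list median of -0.10 against 0.02 for all genes, of which 5.9% were called there in either direction. Summed astrocyte markers were also lower there, at 1363 to 1604 CPM in NT and 899 to 1249 CPM with vector, and their part in these falls was not tested. F3 did not pass in 6 of 11 alternatives and Map2k1 in 3. Per1 and Ptgs1 did not pass in 2 each, and Mapk3 and Fgf2 in 1 each. These include the fit without resting NT replicate 2 for all but Fgf2, which did not pass with length offsets. After KCl edgeR called 1 of the 21 between vector and NT, Ptgs1 (-1.36, adjusted p 0.0241), where 2.67% of all genes were called. That call was lost in 5 of 11 alternatives. There 6 of the 21 had an unadjusted p under 0.05, and DESeq2 called 4 (Bhlhe40, Fgf2, Ptgs1 and Syn1).

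Of 7 genes that Egr2 and Sox10 drive in myelinating Schwann cells, 4 were abundant enough to test. Of these Prx fell at DIV7 (-0.72, adjusted p 0.0269, edgeR), where 17.0% of all genes were called in either direction. The Prx call did not pass in 6 of 9 alternatives. At DIV18 edgeR and DESeq2 called 0 of the 4 after KCl in NT, vector and WT cultures. There edgeR called 2, 13 and 8 of all 20940 genes higher and 0, 2 and 1 lower. Of 11 genes for Nab partners in NuRD-type remodelling complexes, edgeR called 0 at DIV7, beside the 17.0% of all genes called in either direction. Of the 11, 4 had an unadjusted p under 0.05 and DESeq2 called 1, Chd3. The median log2 fold change of the list was 0.11 (-0.0014 for all genes). Gatad2a, 1 of the 11, was lower with vector than in NT at rest (-0.51, adjusted p 0.0330, edgeR), where 5.9% of all genes were called in either direction. The Gatad2a call did not pass in 6 of 11 alternatives. Of 6 factors that share GC-rich sites with Egr proteins, 1 rose and 2 fell at DIV7, beside the 17.0% of all genes called there in either direction. Klf4 went from 2.28 and 2.62 CPM to 32.3 and 35.1 CPM (log2 fold change 3.79, adjusted p 6.24e-06, edgeR), while Sp1 (-0.79) and Zbtb7a (-0.56) fell. In DIV18 libraries Klf4 did not exceed 2.59 CPM. Its DIV7 response exceeded that of NT by 3.40 (adjusted p 0.0131), which did not pass in 5 of 14 alternatives. The Zbtb7a response at DIV7 lay below that of NT by a difference of -0.60 (adjusted p 0.00585, edgeR), which did not pass in 2 of 14 alternatives. With vector, Sp1 was lower than in NT at rest (-0.52, adjusted p 0.0345), which did not pass in 6 of 11 alternatives, and Zbtb7a was lower after KCl (-0.30, adjusted p 0.0408), which did not pass in 7 of 11.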

How the data were processed

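Per the labels, RNA sequencing libraries were made from 24 neuron cultures, poly(A)-selected at DIV7 and rRNA-depleted at DIV18. The submitters' processing notes name FastQC, cutadapt and kallisto. The build and annotation were not given in the sources used here. Per the file headers, the deposited tables list for each transcript an estimated count, a TPM value, a length and an effective length. TPM values, as the authors deposited them, scale the estimated counts by effective length to a fixed library sum, and they were used for levels between genes and for transcript forms. Of 142552 transcripts, 141429 (99.2%) matched GENCODE M21 (GRCm38). The remaining 1123 held at most 0.467% of a library's counts and were left out.

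Counts of a gene's transcripts were added and the sum rounded. edgeR 4.0.16 (R 4.3.3) tested them with TMM normalisation, filterByExpr and a two-sided quasi-likelihood F test, adjusted by Benjamini-Hochberg over all genes tested. Standard errors come from the F statistic. DIV7 libraries were fitted alone (19822 genes, 2 residual degrees of freedom, common biological coefficient of variation 6.44%), the 8 DIV18 groups together (20940 genes, 12 degrees of freedom, 14.6%) and all 24 libraries jointly for the difference between ages (22459 genes, 14 degrees of freedom, 13.5%). In all, 16 contrasts were computed. Promoter windows came from a RefSeq table (GRCm38.p6), in which Egr2, Egr4, Nab1 and Nab2 (4 of the 6 genes) matched by symbol. Scripts were tested on simulated data.

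Members and lists were chosen with earlier results of these data known. The text names the members, list genes called in a response or in vector against NT, and the 3 nearest neighbours of a member by correlation. The same rule was applied to deviations from group means.

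Whether a replicate number links libraries of different groups was checked from how libraries with the same number departed from their own group's mean, gene by gene. For groups with 3 shared numbers, the correlations of these departures were 0.160, 0.131 and 0.327 between resting and depolarized vector libraries, 0.178, 0.197 and 0.348 between depolarized vector and WT libraries, and 0.381, 0.170 and 0.368 between resting vector and S586E libraries. All exceed 0.1, and the numbers were taken to pair those libraries. The main tests nevertheless used no pairing, and the replicate block was run as an alternative. Groups with 2 shared numbers gave a single value each, from -0.121 to 0.166, too few to decide on pairing. Alternatives were DESeq2 1.42.0, median-of-ratios size factors, no low-count filter, length offsets, a replicate block, a fit of only the groups compared, and leaving out each library. A crossed block in NT was added after the data were seen.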

Additional observations from a re-analysis of the deposited data

Results flagged for a closer look

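The response to depolarization at DIV7 differed from that of NT cultures at DIV18 for 3 of the 6 genes in a test of the difference itself (edgeR, all 24 libraries). The difference was 3.48 on the log2 scale for Egr1, and 3.45 for Egr2. For Egr3 it was 0.91, just inside the threshold, and it did not pass in 8 of 14 alternatives. Age, library type, DMSO and the guide RNA differ together between these cultures and cannot be told apart. The check for a single high or low library needs at least 4 libraries in a group, and no group had so many.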

How the results depend on the processing

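Counts of the 6 members called are given by comparison. The shares of all genes called under the same alternatives are not given, so these counts do not show whether the members stand out there. At DIV7 the count was 5 and fell to 3 with length offsets, and it was 4 to 5 when each library was left out. For NT (0) it was 2 with DESeq2, 3 without the low-count filter, 1 with the replicate block (Egr1), 2 with the block in a fit of only the NT groups, and 0 to 1 when each library was left out. For vector (2) it was 4 without the filter. For WT (3) it was 0 when the WT groups were fitted alone and 0 to 3 when each library was left out, with 0 without either resting WT library. Without the filter it was 1 in place of 0 for the response of vector minus that of NT, the response of WT minus that of vector, vector against NT under KCl, WT against vector at rest and S586E against WT at rest, and 2 in place of 0 for vector against NT at rest. DESeq2 called 1 in place of 0 for vector against NT at rest and 1 for WT against vector at rest. Leaving out each library gave 0 to 1 for vector against NT at rest and 2 to 3 for the DIV7 response minus that of NT. Every other count stayed within 1.5 times its value in the alternatives run, and no value with a call reversed. The cause of these moves was not tested.

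The replicate block changed no other count of members called. Same-numbered NT libraries of the 2 states had a correlation of deviations of -0.121, and a crossed pairing, chosen after seeing the data, called 2 members in a fit of only the NT groups. At DIV7 (0.102) and with WT (-0.105) the 2 shared numbers gave a single value each, too few to decide whether the libraries are paired.

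Where leaving out a library left a group with 1 library, that library was assumed to vary like the other groups. With 2 or 3 libraries a group, intervals at DIV18 for Egr1 and Egr4 are wide, and Egr2 counts at rest are low, so small differences between constructs were not detectable at this depth and number of libraries. The Egr3 response in NT was -0.13 and turned to 0.17 with length offsets and to 0.12 without resting replicate 2, with none of the 3 values past the threshold. Promoter matches and transcript forms carry no test.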
